A study of Homo sapiens with 6 samples.

Results

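The genes described are a set of 35 that act in homologous recombination, the Fanconi anaemia pathway, mismatch repair and the signalling that goes with them. They were chosen by name from textbook pathways, with earlier results of these data known. Counts over the set therefore describe it and do not test it. Each gene was read from the array row with exactly 1 gene symbol and the highest mean over all arrays. Of the 35, 32 were measured in this way, out of 33616 genes in the table. BRCA2, FANCA and FANCD2 were not analysed here. MHH-cALL4, a single human cell line of Philadelphia chromosome-like (Ph-like) acute lymphoblastic leukaemia, received either the solvent DMSO (3 arrays) or 1 µM ruxolitinib (3 arrays), each for 12 h. Ruxolitinib inhibits the JAK1 and JAK2 kinases, which are active in leukaemias of this subtype with high CRLF2. The titles and source names of the treated arrays give MHH-cALL5, whereas their cell line field reads MHH-cALL4. Nothing in the labels says that the replicates were separate cultures, so the tests measure the spread between these arrays, which may be technical.

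Homologous recombination copies a broken DNA end from the sister chromatid. Nucleases such as EXO1 expose single-stranded DNA, BRCA1, BARD1 and PALB2 prepare it for strand exchange, and the BLM helicase with its RMI partners takes the joined molecules apart without crossover. The Fanconi proteins unlock crosslinks between the DNA strands by marking FANCI and its partner with ubiquitin, mismatch repair corrects copying errors in the newly made strand, and ATR, ATM and their kinases CHEK1 and CHEK2 hold the cell cycle meanwhile. Many of these genes are transcribed most strongly around S phase, and B-cell precursors also face breaks made by the RAG recombinase.

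The arrays carried the identity of B-cell precursors. All 10 measured markers of that type, among them DNTT, CD79A, VPREB1 and CRLF2, lay between 11.5 and 19.7 on the log2 scale on every array. The 5 measured T-cell markers reached at most 5.41, the myeloid ones 6.38 and the erythroid ones 6.14. Epithelial or stromal markers reached up to 9.08 (COL1A1). Over all genes, arrays of the same group correlated at 0.990 to 0.994 and arrays of different groups at 0.987 to 0.993. DMSO replicate 1 and ruxolitinib replicate 3 stood apart from the other 4 in 215 genes of small structural RNAs (mean log2 signal 8.48 and 8.45, against 7.94 to 8.17). They also had the highest scores on the second principal component (29.8% of the variance), 38.5 and 33.7. There DMSO replicate 2 lay between, at 8.31, and the remaining arrays at -22.7 to -29.9, so that component gave no clean split. DMSO replicate 1 held the lowest of the 6 values for 20 of the 32 members, against 23.4% of all genes, and ruxolitinib replicate 3 held the highest for 14 of the 32, against 13.8% of all genes. Results are therefore also given without both, and their part in the changes beyond those values was not tested. As a check on the drug, CISH, the STAT5-induced feedback gene, fell by 6.52 ± 0.19 (SE) on the log2 scale (adjusted p = 2.78e-08, limma), and of 8 measured JAK-STAT target genes 6 fell and 1 rose (median -1.46).

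Transcripts of the 32 repair members lay mostly higher with ruxolitinib, by small amounts. The nuclease gene EXO1 and RMI1, a partner of the BLM helicase, rose past the threshold (adjusted p under 0.05 over all genes, limma), and 0 of 32 members fell. At that threshold 0.101% of all genes were higher and 1.04% lower, and 30 members did not pass. At an unadjusted p under 0.05, 13 members were higher and 1 was lower (limma), against 2.68% and 6.85% of all genes. The median log2 change of the members was 0.41, against -0.02 for all genes, with 26 members above 0 and 6 below. In 12 members every ruxolitinib array lay above every DMSO array, where 5.14% of all genes did so, and in FANCM alone every one lay below, where 9.03% did. A change of at least 0.5 was seen in 14 members (2.05% of all genes), up to 0.88, which is 1.84-fold, and in the lower direction in 0 (5.87% of all genes). Counts on all 6 arrays for the smaller groups and lists below are to be read against these same shares. 

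All 32 members lay above the median level of the table, so the same shares are also given for such genes alone. Of these, 0.202% were higher and 2.02% lower past the adjusted threshold, and 3.61% and 12.1% at an unadjusted p under 0.05. Groups that did not overlap were found in 4.93% (higher) and 13.9% (lower), and changes of at least 0.5 in 3.06% and 10.7%.

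Without DMSO replicate 1 and ruxolitinib replicate 3 the median was 0.22, and 22 members were above 0. Neither EXO1 nor RMI1 passed in that fit, where 0.0773% of all genes were higher and 0.872% lower. A change of at least 0.5 upwards was seen in 8 members, where 2.89% of all genes had one upwards and 8.05% downwards. At an unadjusted p under 0.05, 7 members were higher and 3 lower (limma), against 2.59% and 7.54% of all genes. Groups of 2 arrays that did not overlap were found in 13 members higher and 6 lower, against 15.7% and 23.3% of all genes.

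**Figure D1:**
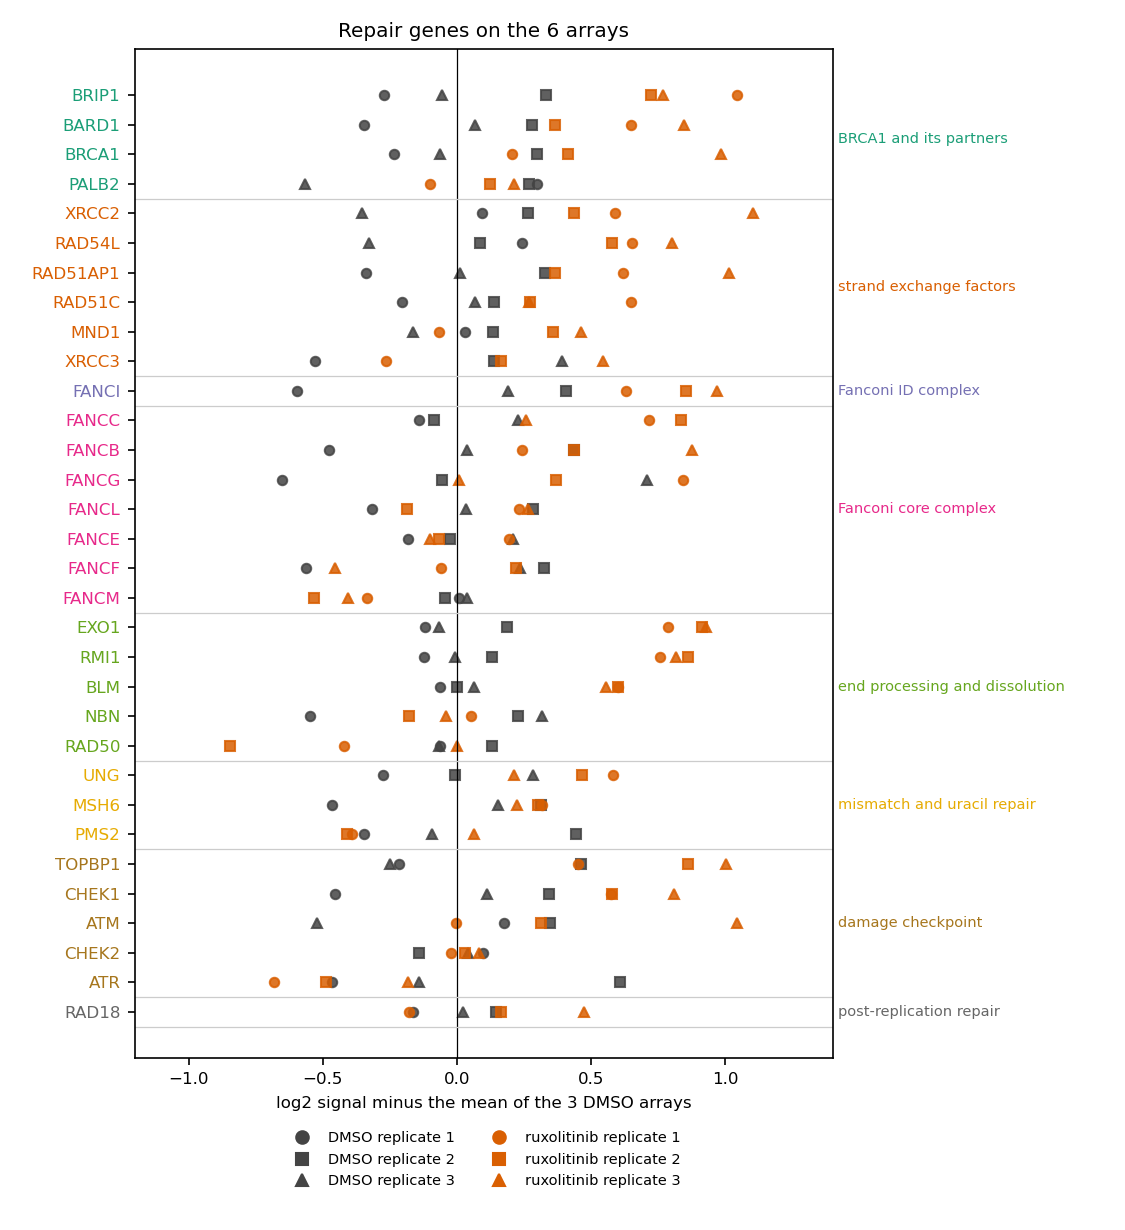
Each of the 32 measured repair genes on the 6 arrays, as log2 signal minus the mean of the 3 DMSO arrays, grouped by role; grey points are DMSO arrays, orange points ruxolitinib arrays, and the shape gives the replicate number. EXO1, RMI1 and BLM have tight groups that do not touch, whereas FANCG, XRCC3 and ATR spread widely within DMSO.

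Both members past the threshold have a role in cutting back DNA ends or dissolving joined molecules. Of the 5 members with such a role, 3 had changes above 0 and 2 below. EXO1, a 5′ to 3′ exonuclease of end resection and mismatch repair (cluster TC0100012172.hg.1), read 12.37, 12.67 and 12.42 on the DMSO arrays and 13.27, 13.40 and 13.42 with ruxolitinib. Its groups were separated by more than either group's own range, and the log2 change was 0.88 ± 0.17 (SE; 95% interval 0.49 to 1.26; adjusted p = 0.038, limma). RMI1, which holds BLM and topoisomerase TOP3A together (cluster TC0900007740.hg.1), read 12.41, 12.67 and 12.53 against 13.29, 13.40 and 13.35. It too had no overlap, with a change of 0.81 ± 0.17 (adjusted p = 0.0474, limma). Both calls were close to the threshold and were lost whichever array was left out (adjusted p 0.0823 to 0.187 for EXO1 and 0.110 to 0.219 for RMI1, limma), while the changes stayed between 0.82 and 0.97 and between 0.75 and 0.88.

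BLM, the helicase whose loss causes Bloom syndrome (cluster TC1500008328.hg.1), read 11.84, 11.90 and 11.97 in DMSO and 12.50, 12.50 and 12.46 with ruxolitinib. Both groups were tight (SD 0.06 and 0.03), but the change of 0.59 ± 0.16 did not pass over all genes (adjusted p = 0.16, limma). It was 0.57 without the 2 arrays that stood apart. RMI2, the remaining small subunit of the same complex and no member of the set, read 8.90, 9.38 and 9.70 against 10.60, 10.64 and 10.21 and rose by 1.15 ± 0.23 (adjusted p = 0.0378, limma; 1.08 and adjusted p = 0.0475 without the 2 arrays). Leaving out single arrays in turn, RMI2 kept its call in 2 of 6 fits. TOP3A, the topoisomerase of the complex, had a change of 0.39 with overlapping groups and did not pass (adjusted p = 0.79, limma). The 7 measured genes of junction resolution and crossover, RMI2 and TOP3A among them, had a median of 0.07, and SLX4, a nuclease scaffold, had -0.48.

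**Figure D2:**
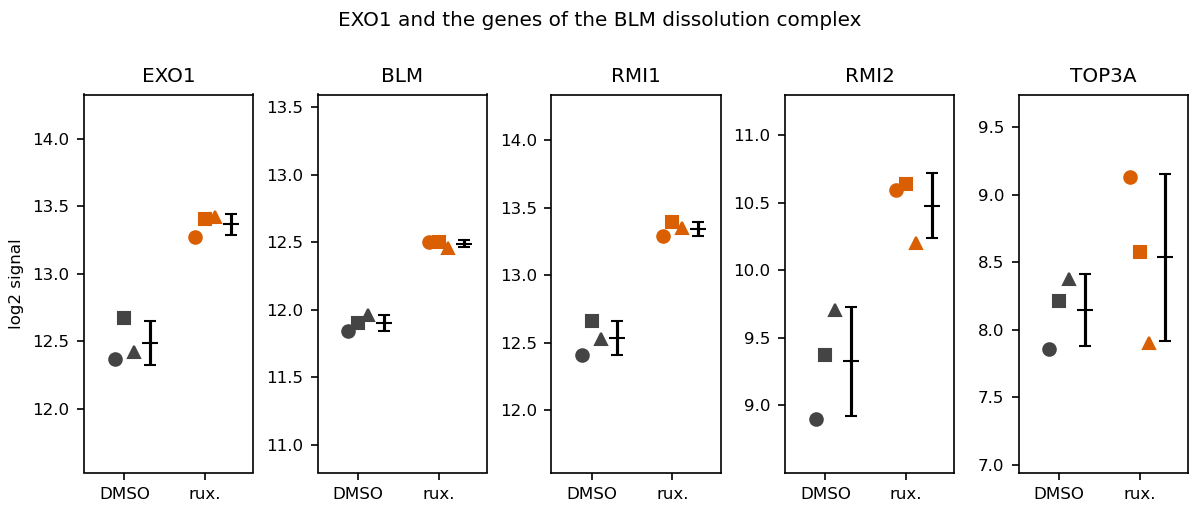
Log2 signal of EXO1 and of the 4 genes of the BLM complex on each array (circle, square and triangle for replicates 1, 2 and 3; grey DMSO, orange ruxolitinib), with the mean and SD (n = 3) beside the points; every panel spans the same number of log2 units. The groups of EXO1, BLM, RMI1 and RMI2 are separate, and those of TOP3A overlap.

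The break sensors of the same role did not pass the threshold. RAD50, an ATPase of the MRN complex that tethers DNA ends, read 12.08, 12.27 and 12.07 in DMSO and 11.72, 11.29 and 12.14 with ruxolitinib. Replicate 3 of the treated arrays reached the DMSO values while replicate 2 was lowest, and the change was -0.42 ± 0.22 (adjusted p = 0.617, limma). Without the 2 arrays that stood apart it was -0.67 and the groups did not overlap, and it still did not pass (adjusted p = 0.308, limma). NBN, the MRN subunit that recruits ATM, had a change of -0.06 ± 0.23 with a 95% interval of -0.57 to 0.46, -0.34 without the 2 arrays, and a second, dimmer NBN cluster showed -0.25 ± 0.27. MRE11, the nuclease of the same complex and no member of the set, had 0.32 ± 0.23 with overlapping groups (adjusted p = 0.779, limma).

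Promoter sequences are shown for the 4 members with the smallest p and a sequence at hand, and for the 2 with the largest p as a contrast. They come from RefSeq (GRCh38.p14) and run from 250 bases before the annotated start to 50 after it, on the strand of the gene. Capitals mark E2F-type sites (TTTCCCGC, TTTCGCGC, TTTGCCGC or TTTGGCGC) and CCAAT boxes, each on either strand. The windows are EXO1 (chr1:241847954-241848253, plus strand), RMI1 (chr9:83980109-83980408, plus strand), BRIP1 (chr17:61863479-61863778, minus strand), BLM (chr15:90717096-90717395, plus strand), CHEK2 (chr22:28741771-28742070, minus strand) and FANCE (chr6:35452088-35452387, plus strand).
EXO1: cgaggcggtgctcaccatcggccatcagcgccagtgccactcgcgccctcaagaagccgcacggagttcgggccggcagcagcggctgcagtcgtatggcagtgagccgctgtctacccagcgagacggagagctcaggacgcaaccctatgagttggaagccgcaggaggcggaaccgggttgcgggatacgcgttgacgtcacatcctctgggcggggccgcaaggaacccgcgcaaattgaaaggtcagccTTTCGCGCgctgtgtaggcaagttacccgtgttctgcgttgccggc
RMI1: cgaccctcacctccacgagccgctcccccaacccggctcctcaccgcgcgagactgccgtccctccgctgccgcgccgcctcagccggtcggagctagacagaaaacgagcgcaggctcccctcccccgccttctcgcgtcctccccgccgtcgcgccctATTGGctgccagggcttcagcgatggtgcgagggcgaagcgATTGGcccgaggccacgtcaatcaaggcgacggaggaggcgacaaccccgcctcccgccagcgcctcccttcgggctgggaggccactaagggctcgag
BRIP1: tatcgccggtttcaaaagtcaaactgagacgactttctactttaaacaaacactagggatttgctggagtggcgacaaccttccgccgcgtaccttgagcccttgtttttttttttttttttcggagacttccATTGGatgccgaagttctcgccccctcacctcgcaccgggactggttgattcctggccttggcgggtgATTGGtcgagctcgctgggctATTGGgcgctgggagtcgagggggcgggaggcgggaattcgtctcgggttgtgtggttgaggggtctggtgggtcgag
BLM: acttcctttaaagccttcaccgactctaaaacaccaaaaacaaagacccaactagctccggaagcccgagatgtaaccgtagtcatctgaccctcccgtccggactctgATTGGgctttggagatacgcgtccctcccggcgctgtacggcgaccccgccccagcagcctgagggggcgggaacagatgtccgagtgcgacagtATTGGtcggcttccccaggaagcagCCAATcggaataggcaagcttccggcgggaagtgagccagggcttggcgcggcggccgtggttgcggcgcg
CHEK2: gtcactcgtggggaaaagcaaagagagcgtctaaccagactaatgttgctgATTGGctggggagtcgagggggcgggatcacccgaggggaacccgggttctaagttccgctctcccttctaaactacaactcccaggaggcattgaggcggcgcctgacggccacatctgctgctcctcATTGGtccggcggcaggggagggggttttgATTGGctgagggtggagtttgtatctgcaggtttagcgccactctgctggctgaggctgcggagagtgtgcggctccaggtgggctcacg
FANCE: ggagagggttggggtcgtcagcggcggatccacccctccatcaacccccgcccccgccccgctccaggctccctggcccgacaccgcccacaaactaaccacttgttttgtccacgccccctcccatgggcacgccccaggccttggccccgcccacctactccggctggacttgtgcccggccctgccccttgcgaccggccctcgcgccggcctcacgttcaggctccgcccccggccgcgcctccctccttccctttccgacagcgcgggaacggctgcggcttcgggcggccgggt
The EXO1 window held an E2F-type site 5 bases into the transcript and no CCAAT box. RMI1 had 2 CCAAT boxes, BRIP1 3, BLM 3 and CHEK2, whose signal hardly moved, also 3. FANCE had neither element in these exact letters. A match is a run of letters and does not show that a factor binds there.

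Among BRCA1 and its partners, BRIP1, a helicase that binds BRCA1, had the largest value. It read 10.86, 11.46 and 11.07 in DMSO and 12.18, 11.85 and 11.90 with ruxolitinib, a change of 0.85 ± 0.20. The groups were apart, and the change did not pass over all genes (adjusted p = 0.09, limma), but did when only protein-coding genes were tested (adjusted p = 0.0334, limma) and after cyclic loess scaling (adjusted p = 0.0364, limma). BARD1, the obligate partner of BRCA1, read 9.74, 10.37 and 10.16 against 10.74, 10.46 and 10.94. Its lowest treated array lay just above the highest DMSO array, and the change of 0.62 ± 0.21 did not pass (adjusted p = 0.301, limma) and was 0.33 without the 2 arrays that stood apart.

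BRCA1, a ubiquitin ligase subunit that steers broken ends towards recombination, read 10.47, 11.01 and 10.65 in DMSO and 10.91, 11.12 and 11.69 with ruxolitinib. The groups overlapped, and the change of 0.54 ± 0.23 (adjusted p = 0.492, limma) was 0.19 without the 2 arrays that stood apart. PALB2, which bridges BRCA1 and BRCA2, had a change of 0.08 ± 0.24 (95% interval -0.45 to 0.61), with DMSO replicate 3 at 9.44 below all other arrays. These 4 genes together had a median of 0.58, and 0.26 without the 2 arrays.

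The strand exchange genes split into members with separate groups and members without. XRCC2, which acts in strand exchange with RAD51C, read 13.07, 13.24 and 12.63 in DMSO and 13.57, 13.42 and 14.09 with ruxolitinib, a change of 0.71 ± 0.23 (adjusted p = 0.26, limma). RAD54L, a motor protein that drives strand exchange, read 12.33, 12.17 and 11.76 against 12.74, 12.67 and 12.89, a change of 0.68 ± 0.20 (adjusted p = 0.178, limma). A second, dimmer RAD54L cluster read 9.34, 9.22 and 8.28 against 9.26, 9.32 and 10.21, so that its groups overlapped and its change of 0.65 ± 0.34 rested on the replicates numbered 3. RAD51AP1, which stabilises joined DNA strands, read 9.39, 10.06 and 9.74 against 10.35, 10.09 and 10.74.

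Its change of 0.67 ± 0.23 did not pass (adjusted p = 0.302, limma) and was 0.32 without the 2 arrays that stood apart, whereas RAD54L kept 0.74. RAD51C, found in complexes with XRCC2 and with XRCC3, read 10.36, 10.71 and 10.64 in DMSO and 11.22, 10.84 and 10.84 with ruxolitinib, a change of 0.40 ± 0.19. MND1, an accessory factor of strand invasion best known from meiosis, had 0.25 ± 0.20 (0.16 without the 2 arrays). XRCC3 had 0.15 ± 0.27 with DMSO values from 8.96 to 9.88, and its sign turned without the 2 arrays (-0.31) and in some fits on 5 arrays (range -0.12 to 0.35). On all 6 arrays the 6 strand exchange genes had positive changes with a median of 0.53, which was 0.34 without the 2 arrays. In 4 every treated array lay above every DMSO array (5.14% of all genes), and 0 passed (adjusted p 0.178 to 0.951, limma). At an unadjusted p under 0.05, 3 were higher (limma), against 2.68% of all genes.

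**Figure D3:**
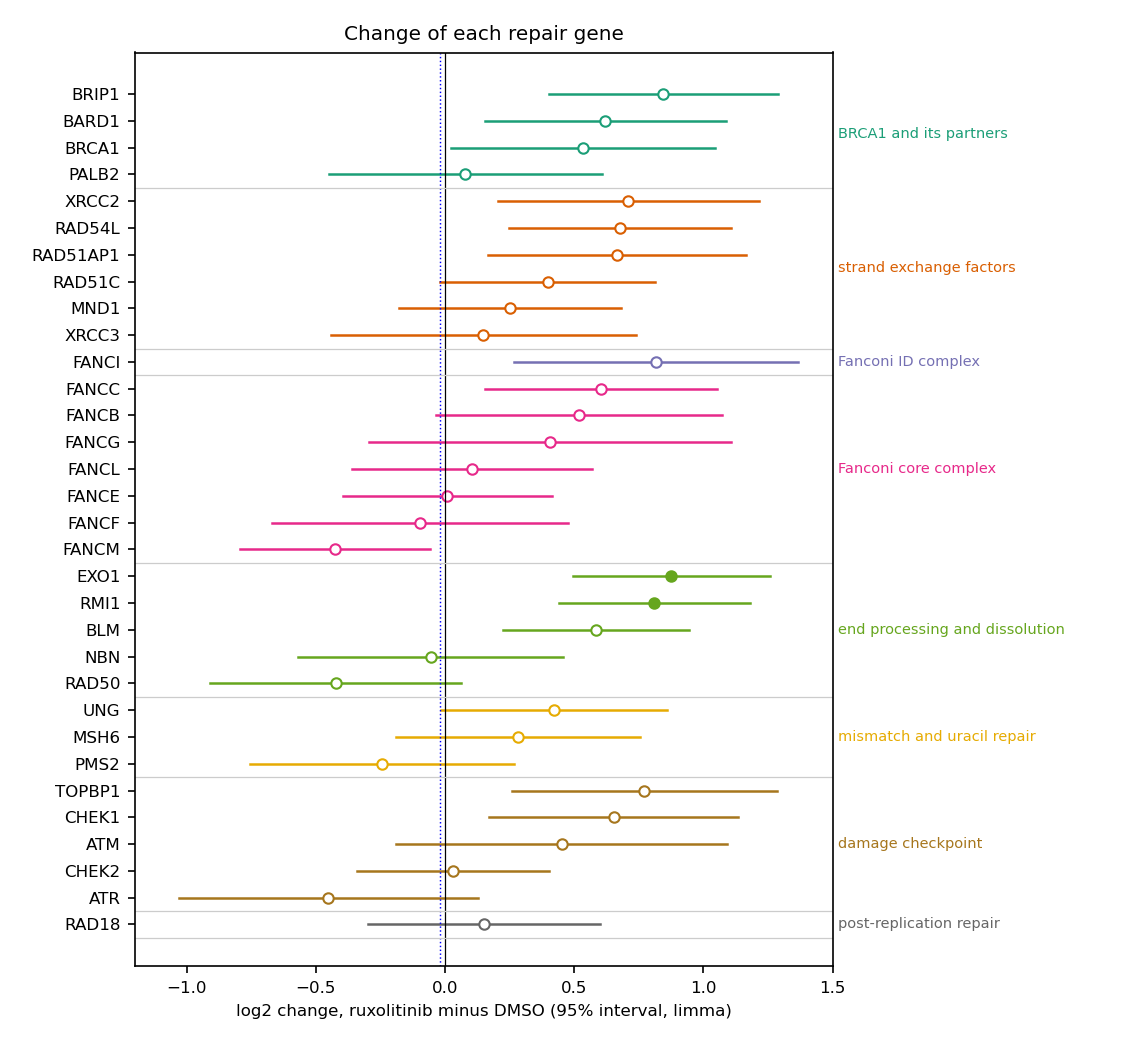
Log2 change (ruxolitinib minus DMSO) of each measured repair gene with its 95% interval from the limma fit; filled points are past the adjusted p threshold of 0.05, and the dotted line is the median of all genes, -0.02. The intervals of BRIP1, XRCC2 and RAD54L lie above 0, and those of PALB2 and XRCC3 span it.

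In the Fanconi pathway 0 of the 8 measured members passed (limma). At an unadjusted p under 0.05, 2 were higher and 1 was lower (limma), against 2.68% and 6.85% of all genes. FANCI, which is ubiquitinated with FANCD2 at a crosslink, read 10.84, 11.84 and 11.62 in DMSO and 12.06, 12.29 and 12.40 with ruxolitinib. DMSO replicate 1 lay a full log2 unit below DMSO replicate 2, so that the change of 0.82 ± 0.25 (adjusted p = 0.219, limma) became 0.44 without the 2 arrays that stood apart. The 7 measured core members had a median of 0.10, which was -0.03 without those arrays, and 0 of 7 passed (limma; unadjusted p under 0.05 in 1 higher and 1 lower).

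FANCC, a subunit of the core's substrate-binding arm, read 8.95, 9.00 and 9.31 against 9.80, 9.92 and 9.35, a change of 0.60 ± 0.21 (adjusted p = 0.296, limma). It was the only core gene with all treated arrays above DMSO, the margin at ruxolitinib replicate 3 being small. FANCM, the DNA translocase that anchors the core complex on chromatin, read 8.24, 8.19 and 8.27 in DMSO and 7.90, 7.70 and 7.83 with ruxolitinib. Its DMSO replicates were the tightest of the set (SD 0.04), all treated arrays lay below them, and the change of -0.43 ± 0.17 did not pass (adjusted p = 0.409, limma).

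The other core genes overlapped between groups. FANCB, a partner of the ligase subunit FANCL, had a change of 0.52 ± 0.25 and only 0.10 without the 2 arrays that stood apart. FANCG, a scaffold for FANCA, ranged from 7.12 to 8.49 within DMSO and had 0.41 ± 0.32. FANCL had 0.10 ± 0.21, FANCE, which contacts FANCD2, 0.01 ± 0.18, and FANCF, an adaptor, -0.10 ± 0.26. Without the 2 arrays these were -0.14, -0.03 and -0.20.

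Mismatch and uracil repair genes had smaller values than EXO1, with which the mismatch proteins work. MSH6, a subunit of a mismatch sensor, read 13.03, 13.81 and 13.65 in DMSO and 13.82, 13.80 and 13.72 with ruxolitinib, a change of 0.28 ± 0.22 that was 0.08 without the 2 arrays that stood apart. The treated arrays were nearly equal, and DMSO replicate 1 alone was low. A second, dimmer MSH6 cluster read 10.47, 10.48 and 10.39 against 11.27, 10.86 and 11.05, a change of 0.61 ± 0.17 with separate groups, so the clusters disagreed in size.

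UNG, the glycosylase that removes uracil from DNA, read 8.11, 8.38 and 8.67 against 8.97, 8.85 and 8.60, a change of 0.42 ± 0.20 (adjusted p = 0.548, limma). PMS2, which cuts the new strand, had a change of -0.24 ± 0.23 and -0.57 without the 2 arrays. PMS2 and CHEK2 have near-identical pseudogene copies, so their signals may be shared. Of the 4 other mismatch repair genes measured, 0 passed in either direction (limma; 0 also at an unadjusted p under 0.05), from MLH3 at -0.09 to MSH4 at 0.12. MSH3, which detects larger loops, had 0.06 and PMS1 -0.03.

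Of the 5 damage checkpoint genes 0 passed (limma). At an unadjusted p under 0.05, 2 were higher and 0 lower (limma), against 2.68% and 6.85% of all genes. TOPBP1, the activator of ATR, read 13.55, 14.23 and 13.52 in DMSO and 14.22, 14.62 and 14.77 with ruxolitinib, a change of 0.77 ± 0.23 (adjusted p = 0.213, limma). The groups touched at DMSO replicate 2. CHEK1, the kinase that ATR activates, read 12.64, 13.44 and 13.21 against 13.67, 13.68 and 13.90, a change of 0.65 ± 0.22 (adjusted p = 0.287, limma) and 0.35 without the 2 arrays that stood apart.

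ATR read 7.70, 8.78 and 8.03 in DMSO and 7.48, 7.68 and 7.98 with ruxolitinib, a change of -0.45 ± 0.26, and -0.82 ± 0.26 without the 2 arrays (adjusted p = 0.26, limma). ATM, the kinase that answers broken ends, read 15.78, 15.95 and 15.09 against 15.61, 15.92 and 16.65, so that ruxolitinib replicate 3 alone lay above DMSO, and the change was 0.45 ± 0.29, or 0.24 without the 2 arrays. CHEK2, the kinase downstream of ATM, had 0.03 ± 0.17 with a 95% interval of -0.34 to 0.40. RAD18, the ligase that marks PCNA at stalled forks, had 0.15 ± 0.20, and -0.09 without the 2 arrays.

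Of the 32 members 30 had a promoter sequence, and the first listed start of each gene was searched. An E2F-type site was present in 7 of the 30 windows (23.3%), against 5.20% of the windows of genes above the median level and 3.33% of all windows. They are shown with 10 bases on each side, read on the strand of the match, with the site in capitals; EXO1, FANCC (downstream match), MSH6 and PMS2 carry it on the gene's strand, and the others on the opposite strand.
EXO1: aaggtcagccTTTCGCGCgctgtgtagg
TOPBP1: gggaaccgacTTTCGCGCcaaccgcgcg
XRCC2: gagactcaacTTTCCCGCcaccaacgcc
FANCC upstream match: gtgttcccggTTTCGCGCggaagccccg
FANCC downstream match: tcgtcggaatTTTCCCGCgacgccgcgg
MSH6: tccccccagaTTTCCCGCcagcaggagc
MND1: cgcgtttgatTTTGGCGCcgactacgcc
PMS2: gggaagtattTTTGCCGCcccgcccgga
Those in EXO1, TOPBP1 and MSH6 lie within 12 bases of the start, and that in XRCC2 22 to 29 bases into the transcript. The site was held by 4 of the 12 members that were higher at an unadjusted p under 0.05 and by 3 of the other 18, PMS2 among them. CCAAT boxes were present in 15 of 30 (37.6% of genes above the median level), and the STAT-type run TTCNNNGAA in 3 of 30 (6.56% of those genes). The CHR-type run TTTGAA was present in 3 of 30, against 11.1% of those genes. RMI1, BRIP1 and BLM hold none of the exact E2F-type runs in these windows, and looser forms were not searched.

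Repair genes outside the set, of the same pathways and of other branches, had list medians nearer 0 than the members' 0.41, or below 0. This contrast is given without a test, and in part it sets chosen against other genes of 1 pathway. Some of these lists also hold dim genes, and all members lay above the median level. Among genes at a log2 signal of 6 or more on at least 3 arrays, the members' median stayed 0.41. That of other recombination genes was then 0.31 (13 genes), of other Fanconi genes 0.29 (10 genes) and of other mismatch repair genes -0.03 (3 genes). Over the members, change and level correlated at 0.43 (Pearson). Among the members, the 10 genes of the BRCA1 and strand exchange groups had a median of 0.58, and the 7 Fanconi core genes 0.10. In 9 further lists with 117 measured genes the median log2 change was 0.04. Past the adjusted threshold 2 were higher and 1 was lower (limma), against 0.101% and 1.04% of all genes. At an unadjusted p under 0.05, 14 were higher and 10 lower (limma), against 2.68% and 6.85% of all genes. Groups did not overlap in 18 higher and 14 lower, against 5.14% and 9.03% of all genes. The 18 other recombination genes had a median of 0.14 (-0.02 without the 2 arrays that stood apart), and 0 passed (limma; unadjusted p under 0.05 in 3 higher and 0 lower). FIGNL1, an ATPase of recombination, had 0.89 ± 0.19 and missed the threshold narrowly (adjusted p = 0.0505, limma), and PSMC3IP, the partner of MND1, had 0.82 ± 0.23. The 12 other Fanconi genes had a median of 0.18 (0.04 without the 2 arrays), with UBE2T, the conjugating enzyme of the pathway, at 0.43, and 0 passed (limma; unadjusted p under 0.05 in 1 higher and 0 lower).

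In non-homologous end joining, which seals ends without a template, LIG4, its ligase, read 9.28, 9.67 and 9.53 in DMSO and 10.63, 10.43 and 10.52 with ruxolitinib and rose by 1.03 ± 0.18 (adjusted p = 0.0196, limma). No fit on 5 arrays kept the call (largest adjusted p 0.0858, limma). The other 8 end joining genes did not pass. XRCC4, which holds LIG4, had 0.22, and the Ku subunits XRCC5 and XRCC6 had 0.04 and -0.34. For XRCC6 every treated array lay below every DMSO array. The list median was 0.04. Translesion synthesis and polymerase theta had a median of 0.12, with POLQ at 0.70 (adjusted p = 0.3, limma), and 0 of 11 passed (limma; unadjusted p under 0.05 in 2 higher and 0 lower).

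Of the 18 nucleotide excision repair genes 1 passed. RAD23B, a partner of the damage sensor XPC, fell by 0.89 ± 0.19 (adjusted p = 0.0475, limma), and 0 rose (limma; unadjusted p under 0.05 in 0 higher and 4 lower, against 6.85% of all genes lower). The list median was -0.27, with 15 of 18 below 0, and it was -0.26 without the 2 arrays, -0.18 without ruxolitinib replicate 3 and -0.15 after cyclic loess. RAD23B read 14.93, 14.87 and 14.66 in DMSO and 14.04, 14.07 and 13.66 with ruxolitinib, and neither any fit on 5 arrays (largest adjusted p 0.206, limma) nor quantile or cyclic loess scaling kept its call. GTF2H5, a TFIIH subunit, had -0.78 ± 0.20 (adjusted p = 0.121, limma). Of 19 base excision repair genes 0 passed (limma), the median being -0.05. At an unadjusted p under 0.05, 2 were higher and 3 lower (limma), against 2.68% and 6.85% of all genes. NEIL2, a glycosylase, had -1.03 ± 0.24 (adjusted p = 0.0737, limma), and was past the threshold without the 2 arrays (-1.36, adjusted p = 0.0149, limma). HMCES, which shields abasic sites, had 0.71 ± 0.19.

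**Figure D4:**
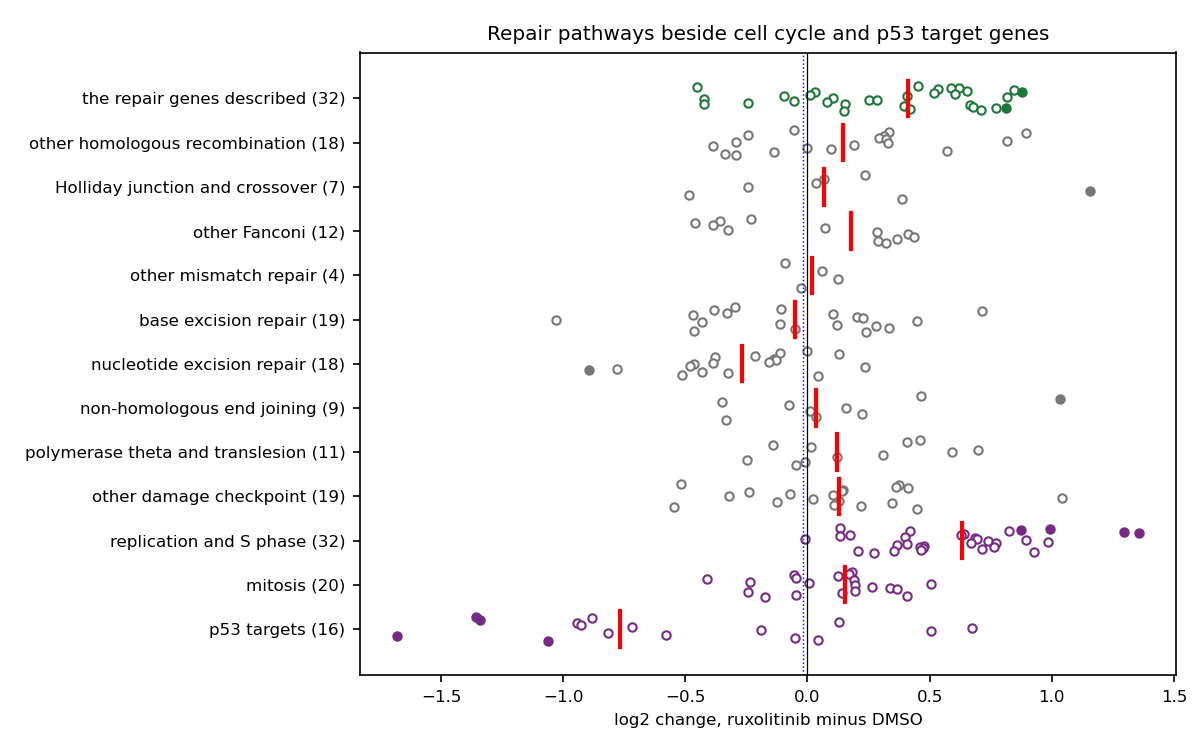
Log2 change of every measured gene of the repair lists (green for the genes described, grey for the other repair lists) and of replication, mitosis and p53 target genes (purple); filled points passed the adjusted p threshold, red bars are list medians, and the dotted line is the median of all genes. The repair genes described have a median of 0.41, between the 0.63 of replication genes and the -0.27 of nucleotide excision repair.

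The 19 other checkpoint genes had a median of 0.13, with RAD9A, a clamp subunit that works with TOPBP1, at 1.04 ± 0.26 (adjusted p = 0.104, limma) and the BRCA1-associated factors ABRAXAS1 and UIMC1 at -0.52 and -0.55. RAD17 and HUS1, which load and form the clamp that RAD9A belongs to, had -0.32 and -0.24, each with every treated array below every DMSO array. Of the 19 genes, 5 had separate groups upwards, RAD9A among them, and 4 downwards, against 5.14% and 9.03% of all genes. None of the 19 passed (limma; unadjusted p under 0.05 in 3 higher and 2 lower).

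Genes of replication and S phase were measured on the same arrays. Of 32 such genes 4 rose (E2F1, E2F2, CDC45 and CCNE2) and 0 fell, against 0.101% and 1.04% of all genes. The median log2 change was 0.63 (0.44 without the 2 arrays that stood apart). At an unadjusted p under 0.05, 19 were higher and 0 lower (limma), against 2.68% and 6.85% of all genes. Groups did not overlap in 19 higher (5.14% of all genes) and 0 lower (9.03%), and 17 rose by at least 0.5 (2.05%). Each of these upward counts was larger than that of the 32 repair members. Without DMSO replicate 2 or ruxolitinib replicate 2 only 1 of the 32 passed. Over the 6 fits on 5 arrays E2F2 kept its call in 6, E2F1 in 4, CCNE2 in 1 and CDC45 in 0. E2F1, a transcription factor of S-phase genes, rose by 1.30 ± 0.19 (adjusted p = 0.00847, limma). The 20 mitosis genes had a median of 0.15, and 0 passed (limma; unadjusted p under 0.05 in 1 higher and 1 lower). The share of cells in each phase was not measured, and its part in the repair genes' values was not tested. In bulk RNA a different share of cells in S phase and a different amount of RNA per cell cannot be told apart.

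Targets of p53, the factor that answers DNA damage, were also read on these arrays, and their part in the repair genes' values was not tested. Of 16 measured, 4 fell (CDKN1A, AEN, TIGAR and ZMAT3) and 0 rose (limma), against 1.04% and 0.101% of all genes, and the median was -0.77. At an unadjusted p under 0.05, 2 were higher and 10 lower (limma), against 2.68% and 6.85% of all genes. Without DMSO replicate 3, ruxolitinib replicate 2 or ruxolitinib replicate 3 only 2 passed. Over the 6 fits on 5 arrays CDKN1A and AEN kept their calls in 6, TIGAR in 2 and ZMAT3 in 1. CDKN1A, the gene of the p21 inhibitor of cyclin-dependent kinases, read 12.21, 12.06 and 12.23 in DMSO and 11.00, 10.88 and 10.60 with ruxolitinib and fell by 1.34 ± 0.18 (adjusted p = 0.00464, limma). MDM2, which degrades p53, had 0.67 ± 0.19 and RRM2B 0.50 ± 0.22, and neither passed. XPC and DDB2 stand both in this list and among the nucleotide excision repair genes.

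**Figure D5:**
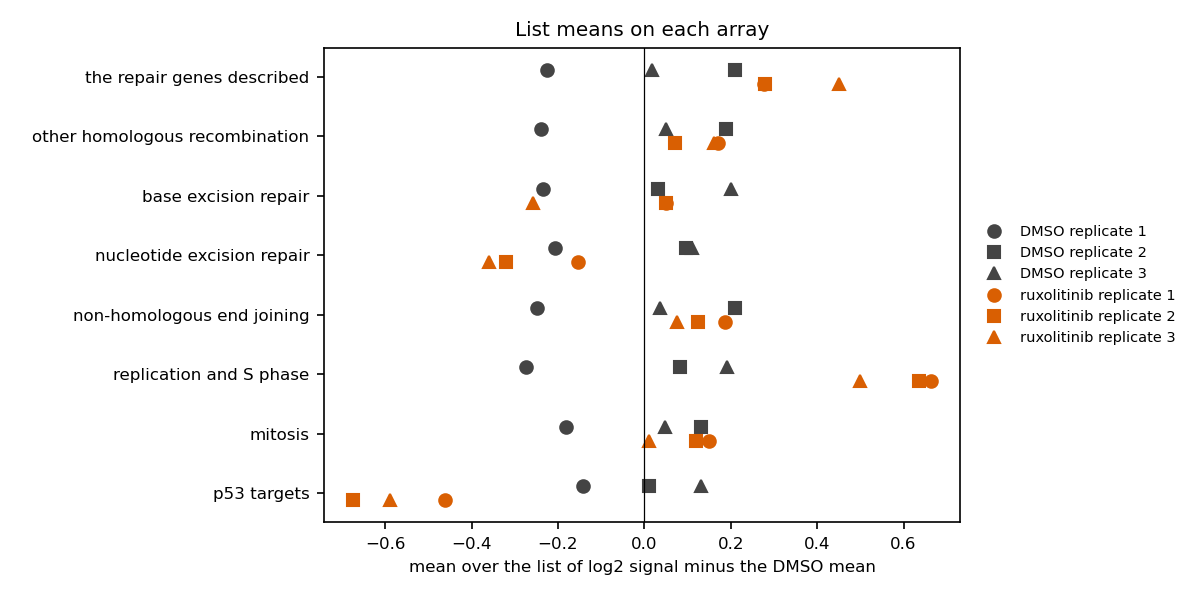
Mean over each list of log2 signal minus the DMSO mean, on each array (grey DMSO, orange ruxolitinib, shape for the replicate number). DMSO replicate 1 is the lowest DMSO array in all 8 lists shown, and for the repair genes described ruxolitinib replicate 3 is the highest (0.45, against 0.28 on each of the other 2 treated arrays and -0.23, 0.21 and 0.02 on DMSO replicates 1, 2 and 3).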

How the data were processed

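RNA from 3 DMSO and 3 ruxolitinib arrays was analysed. Each deposited value is a log2 signal of a transcript cluster. The submitters' processing notes name RMA, Transcriptome Analysis Console and Affymetrix Expression Console, with no version or order. The scale was read from the range of 1.99 to 19.92. Genome build and annotation version: not given in the sources used here. No detection calls were used, so a dim gene cannot be told from background.

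Of 135750 rows 36176 had exactly 1 gene symbol, 1119 several and 98455 none. Symbols were updated through Entrez identifiers with RefSeq (25516 rows matched), and each gene was read from its brightest row. All 33616 genes were fitted with limma 3.58.1 in R 4.3.3 (lmFit, eBayes, no covariates, two-sided, Benjamini-Hochberg over all genes, threshold 0.05), which was tested on simulated data. The median SE of a log2 change was 0.200, and the number of arrays limits the precision. Lists are described by counts and medians, without a set test. Of 207 genes in the 13 further lists 191 were measured. The members, lists and alternatives were chosen with earlier results of these data known. Named were all members and, per list, the genes past the threshold and up to 4 with the smallest p. MRE11, RAD17, HUS1, XRCC5, MDM2 and RRM2B fall outside that rule and were chosen after seeing their values. The alternatives changed the variance model, dim genes, rows, scaling, array weights, replicate number, a covariate and arrays left out.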

Additional observations from a re-analysis of the deposited data

How the results depend on the processing

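Over 21 alternatives, 24 of the 32 members kept the sign of their change and 8 near 0 did not in at least 1 of them. Only EXO1, RMI1 and BRIP1 were called in any alternative, and 29 members in none. The 2 higher members became 0 when the replicate number was a block (replicate block), without moderation of the spread, with all rows of the table tested and without both arrays that stood apart, 1 with limma-trend or median centring, and 0 without any single array. Over all genes, 34 higher and 350 lower became 1 and 1 without moderation, 6 and 98 over all rows, 64 and 533 over protein-coding genes, 21 and 166 after quantile normalization, 6 and 116 with the replicate block, and 63 and 530 at an adjusted p under 0.1. Cyclic loess gave 59 higher and 244 lower genes, leaving out both arrays 26 and 293, and the small RNA covariate 534 lower. Leaving out 1 array gave 3 to 28 higher and 98 to 280 lower genes. Same-numbered arrays did not deviate together (correlations -0.21, -0.08 and -0.40), so they were not treated as pairs. The members' median ranged from 0.28 (without DMSO replicate 1) to 0.47 with 1 array left out and was 0.53 after cyclic loess. Members with separate groups numbered 12 to 16 higher and 1 to 4 lower with 1 array left out, and the share over all genes was not computed for those fits. Without both arrays that stood apart, 13 were higher and 6 lower, against 15.7% and 23.3% of all genes. On all 6 arrays the shares of all genes were 5.14% and 9.03%. Alternatives for the further lists were chosen after seeing the data: their medians moved by more than the spread between arrays for other recombination (-0.11 without DMSO replicate 1; range -0.11 to 0.30 with 1 array left out), other Fanconi genes (-0.10 without DMSO replicate 1; range -0.10 to 0.33), other mismatch repair (0.14 without DMSO replicate 2, and -0.053, within that spread, without both arrays that stood apart) and other checkpoint genes (0.24) after cyclic loess. The cause of these shifts was not tested. With a median 95% interval of 0.44 either side, changes of the size seen in most members are near the limit of 3 arrays per group.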
